A study of Homo sapiens with 23 samples.

Results

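A block of genes on the long arm of human chromosome 4 had lower RNA values in prexasertib-resistant EFO-21 cells than in the parental line. The list holds 52 genes of a window in bands 4q22 to 4q25 that starts at 93 Mb (GRCh37). The first gene analysed, on the side of the centromere, is *SMARCAD1* (chr4:95128762-95212443), and the last, on the side of the telomere, is *ALPK1* (chr4:113206665-113363777). They were chosen by their measured values, that is, by the resistant-minus-parental difference in EFO-21. The table held 51 of them, of 21658 genes in all, and *HPGDS* was not analysed here. Another 28 genes of the table start in the same window and were not listed, so that the window held 79 genes. Since the EFO-21 libraries chose the genes, their EFO-21 values are given as a description without a test, and tests are given for Kuramochi, OV-90 and OVSAHO, which the choice did not use.

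The libraries came from 4 established ovarian cancer cell lines, each as the untreated parental line and as a resistant line. The resistant lines were selected by exposing the cells for a long time to rising concentrations of prexasertib, an inhibitor of the kinase CHK1, which restrains cells with stalled replication from entering mitosis. Each of the 8 groups had 3 libraries, except for parental OV-90 with 2, which makes 23 libraries. They are called here by the library numbers of the table, which are names only. The labels call the libraries of a group biological replicates, and p-values measure the spread between these libraries only. Each line has 1 resistant version, so that a property of that selected population and a property of resistance cannot be told apart, and whether the drug was present at harvest is not given in the sources used here. The values are log2 expression values, 1 per gene and library, and a difference of 1 is a 2-fold change. Within a library they cannot be compared between genes as amounts per length. In bulk RNA, a lower value in every cell and a loss in part of the cells cannot be told apart.

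The keratins *KRT8* and *KRT18*, markers of simple epithelium, were well expressed in all lines, with group means from 8.77 to 12.31. The other epithelial markers were low in some groups. In resistant Kuramochi, *EPCAM* had a mean of 2.69 and *CDH1* of 1.61, and in resistant OVSAHO *KRT19* was at 3.32. The Müllerian factor *PAX8* was between 8.44 and 9.37 in the other lines but 2.10 in parental and 1.95 in resistant OV-90. Other Müllerian markers varied too. In EFO-21, *WT1* was at 1.03 in parental and 0.04 in resistant libraries, and *MSLN* rose from 7.15 to 9.24. In OVSAHO, *MUC16* fell from 6.86 to 2.27. Of 11 markers of leukocytes, endothelium and fibroblasts, 2 were higher in resistant EFO-21, and 3 fell and 4 rose in Kuramochi. In OV-90 1 of them fell, and in OVSAHO 5 fell and 3 rose. The mean level of the 11 was 4.24 to 4.36 in the parental and 4.59 to 4.67 in the resistant EFO-21 libraries. It was 2.91 to 3.80 against 3.11 to 3.30 in Kuramochi. Single markers lay far from these means. In parental EFO-21, *CDH5* was at 9.11, *PECAM1* at 8.48 and *CD68* at 8.45, but *DCN* at 0.03 and *LUM* at 0.53. Epithelial markers also moved, since 4 of 5 fell in resistant Kuramochi and 3 of 5 in OVSAHO. In resistant EFO-21 0 of 5 fell and 1, *CDH1*, rose, from 4.65 to 6.03. The part of these shifts in the values below was not tested. Parental OV-90 libraries 2 and 3 stood apart from each other, with a correlation over all genes of 0.952, against 0.971 to 0.988 in the 21 other pairs of libraries of 1 group. For 16 of the 51 genes they differed by more than 0.5 on the log2 scale, against 1 to 8 genes in the other pairs.

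Genes that lie side by side on a chromosome mostly have a promoter of their own and often serve unrelated functions, and the listed stretch is of this kind. Some serve every cell, such as *EIF4E*, whose protein binds the cap of messenger RNA, *H2AZ1*, which encodes a variant histone at promoters, and *UBE2D3*, a ubiquitin-conjugating enzyme. Others are used by few tissues, such as the alcohol dehydrogenases of the liver and *MTTP*, which loads lipid onto lipoproteins.

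Promoter sequences were looked up because many of the listed genes were lower together in EFO-21 and Kuramochi. RefSeq (GRCh38.p14) gave promoters of 48 of the 51 genes, from 250 bases before to 50 bases after the start. The CCAAT box, searched as CCAAT and, on the other strand, ATTGG, was found in 16 of the 48 (33.3%), against 35.7% of the 27305 promoters of the whole set. The median GC content was 59.8% against 58.3%. The listed promoters therefore held this motif about as often as promoters in general. Shown here are the promoters of *H2AZ1*, a gene every dividing cell uses whose promoter holds the motif more than once, and of *CISD2*, which encodes an iron-sulphur protein of the endoplasmic reticulum and mitochondrial surface and starts 78 bases from *UBE2D3* on the opposite strand. They are written 5′ to 3′ with matches to the motif in capitals. The first lies at chr4:99950226-99950525 on the minus strand and the other at chr4:102868742-102869041 on the plus strand of GRCh38.p14.
H2AZ1: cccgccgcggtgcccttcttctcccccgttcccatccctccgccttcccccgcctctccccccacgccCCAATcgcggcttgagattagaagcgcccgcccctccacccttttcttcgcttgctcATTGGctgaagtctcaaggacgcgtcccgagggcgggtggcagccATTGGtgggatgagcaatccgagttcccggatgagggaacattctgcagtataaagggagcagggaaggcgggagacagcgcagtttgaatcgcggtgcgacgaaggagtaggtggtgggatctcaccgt
CISD2: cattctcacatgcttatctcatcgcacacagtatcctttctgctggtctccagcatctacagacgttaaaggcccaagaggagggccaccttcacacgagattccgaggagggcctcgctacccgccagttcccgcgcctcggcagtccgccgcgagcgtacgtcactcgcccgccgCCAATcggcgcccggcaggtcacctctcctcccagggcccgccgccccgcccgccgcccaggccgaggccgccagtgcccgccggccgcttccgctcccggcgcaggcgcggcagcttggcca
A match of these letters is a description of the sequence only.

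In EFO-21, the median difference of the 51 genes was -1.17, with quartiles of -1.40 and -0.78, against a median of 0.01 over all genes. The values ran from -5.40 for *PPP3CA* to 0.13 for *ADH6*, and 45 of 51 were below 0. The resistant libraries all lay under all parental libraries for 43 genes (29.3% of all genes do so), and 33 genes were past the thresholds of an adjusted p under 0.05 and a 2-fold change (7.15% of all genes lower and 7.11% higher). These counts follow from the choice of the genes, 0 of which were past the thresholds for higher values, and nothing is read from them. Among the 46 genes that were not at the bottom of the scale in both groups, 32 lay between -0.8 and -1.6, 6 below this band and 8 above it. The bottom means here that every library of the group was at or under its own 10th percentile, which is 1.70 to 1.87. For a group at the bottom, the difference is not a measured fold change. No value of the difference was set as a limit for the list. The listed genes nearest to 0 were *NPNT* at 0.00, *UNC5C* and *ADH1C* at 0.04, *LRIT3* at 0.07 and *CYP2U1* at 0.11.

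**Figure D1:**
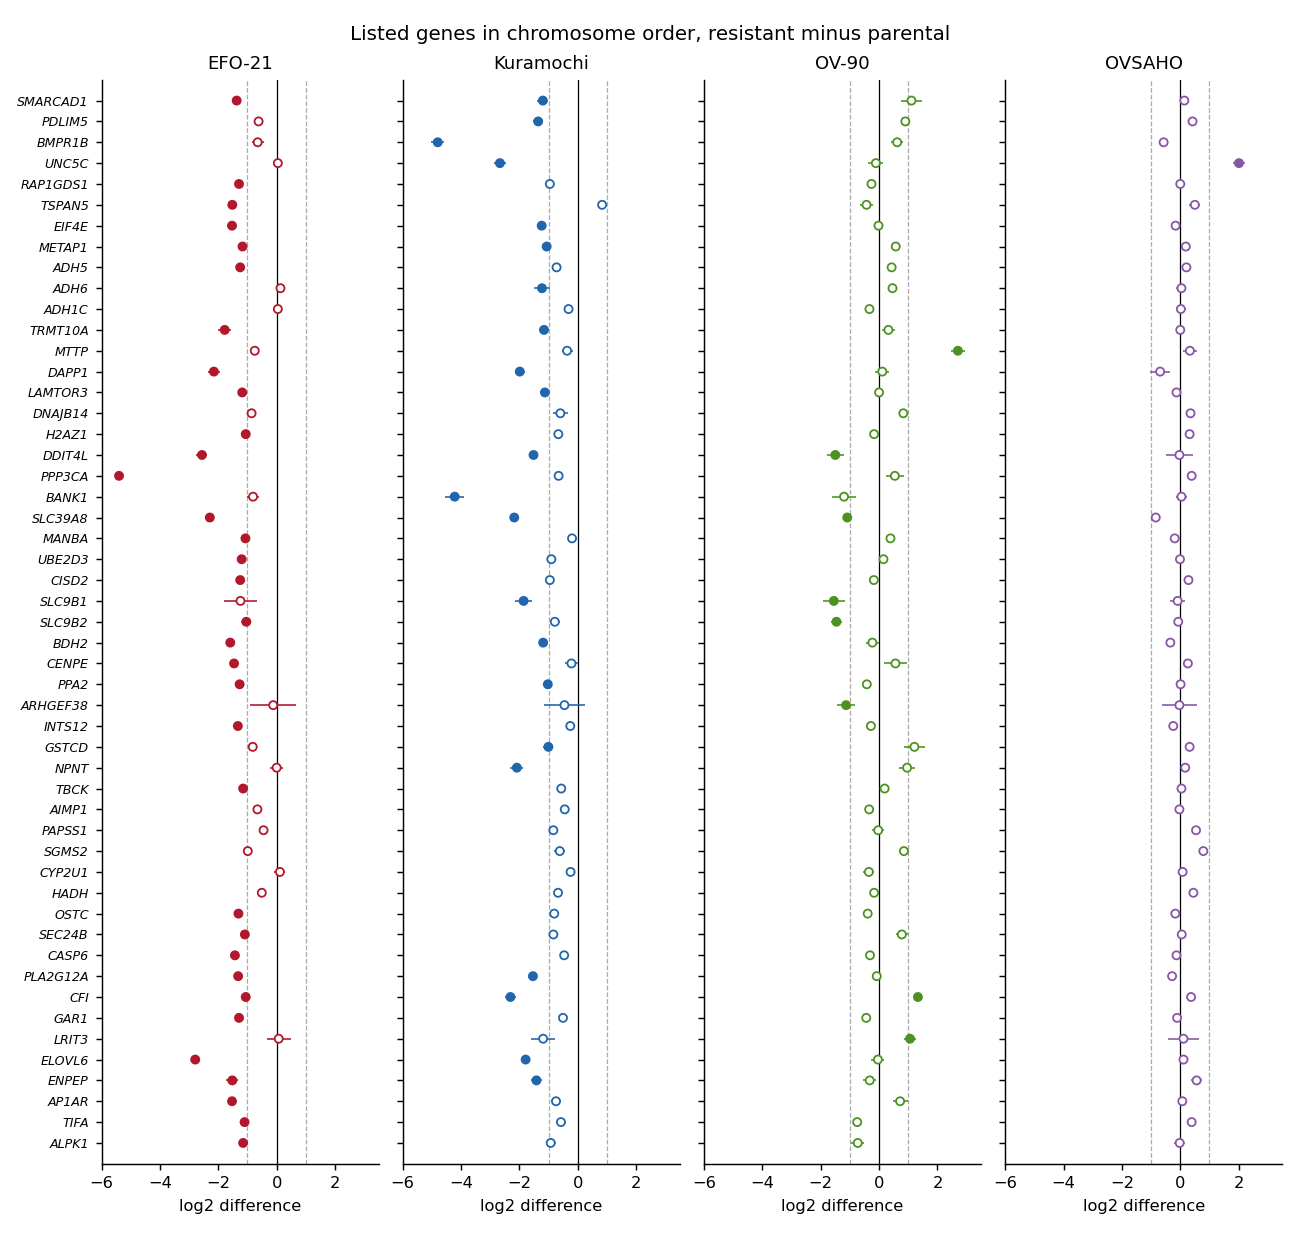
Difference between resistant and parental libraries (log2, x axis) of the 51 listed genes in chromosome order from top to bottom, for each line. Points are differences of group means, bars are standard errors from limma, filled points passed an adjusted p under 0.05 and 2-fold (a description in EFO-21), and dashed lines mark 2-fold. Most points lie left of 0 in EFO-21 and Kuramochi, with medians of -1.17 and -0.93, and around 0 in OV-90 and OVSAHO, with medians of -0.04 and 0.04.

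The difference was as large in each resistant EFO-21 library as in the others. The median of the 51 genes against the parental mean was -1.20 in library 22, -1.16 in library 23 and -1.12 in library 24, while the 3 parental libraries stood at 0.02, -0.03 and -0.01. In Kuramochi the resistant libraries 16, 17 and 18 gave -0.92, -0.84 and -0.97. Over the 45 genes that were at the bottom of both groups in none of the lines, parental EFO-21 was the lowest of the 4 parental lines for 15 genes and the highest for 7. With resistant EFO-21 in its place, it was the lowest for 41 and the highest for 1. The rank of the resistant line follows in part from the choice of the genes and is a description.

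The genes of chromatin and mitosis had similar differences in EFO-21, from -1.46 to -1.06. *H2AZ1* was at 11.81, 11.75 and 11.77 in the parental and at 10.67, 10.72 and 10.75 in the resistant EFO-21 libraries. *CENPE*, which encodes the kinesin that carries chromosomes to the spindle equator, was at 7.36, 7.05 and 7.28 against 5.83, 5.74 and 5.73. *SMARCAD1*, a chromatin remodeller that acts in DNA end resection, was at 6.93, 6.75 and 6.85 against 5.45, 5.47 and 5.49. The parental and resistant values did not overlap for any of these genes. In Kuramochi, *SMARCAD1* fell (7.05, 6.52 and 6.56 against 5.50, 5.73 and 5.30, a difference of -1.20 ± 0.19 (SE), limma adjusted p = 0.00309). *H2AZ1* differed there by -0.67 ± 0.061 (limma adjusted p = 0.00032), short of 2-fold, and *CENPE* by -0.22 ± 0.21 (limma adjusted p = 0.42), with overlapping libraries. *INTS12*, a subunit of the Integrator complex that processes small nuclear RNA, differed by -1.33 in EFO-21 and by -0.26 ± 0.11 in Kuramochi (limma adjusted p = 0.109). It overlaps *GSTCD* on the other strand, and since the use of strand in counting is not given in the sources used here, the values of both are uncertain.

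Of the genes for translation and RNA, *EIF4E* had the values 5.75, 5.55 and 5.59 in parental and 3.95, 4.42 and 3.94 in resistant EFO-21. In Kuramochi it fell from 6.06, 6.14 and 6.23 to 4.90, 4.96 and 4.85 (-1.24 ± 0.12, limma adjusted p = 0.000408). *METAP1*, which removes the first methionine of new proteins, was at 7.74, 7.49 and 7.56 against 6.38, 6.43 and 6.47 in EFO-21. It fell in Kuramochi too (8.51, 8.36 and 8.20 against 7.31, 7.31 and 7.26, a difference of -1.07 ± 0.093, limma adjusted p = 0.000265). *GAR1*, a protein of the H/ACA particles that modify ribosomal RNA and of telomerase, was at 6.68, 6.56 and 6.69 against 5.07, 5.50 and 5.50 in EFO-21. In Kuramochi its libraries were at 6.31, 6.67 and 6.66 against 6.0, 5.89 and 6.20 (-0.51 ± 0.15, limma adjusted p = 0.0282). The tRNA methyltransferase *TRMT10A* differed by -1.78 in EFO-21 and fell by 1.16 in Kuramochi (limma adjusted p = 0.00179). The synthetase scaffold *AIMP1* had the smallest difference of this group in both lines, -0.66 in EFO-21 and -0.45 in Kuramochi.

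Only 1 of the 3 listed alcohol dehydrogenases had a level that could be compared in EFO-21. *ADH5*, the formaldehyde-clearing form that most tissues express, was at 9.71, 9.62 and 9.75 in parental and 8.48, 8.44 and 8.41 in resistant libraries. In Kuramochi it was at 10.03, 10.07 and 10.12 against 9.33, 9.36 and 9.34, a difference of -0.73 ± 0.049 (limma adjusted p = 0.0001). *ADH6* and *ADH1C* were at the bottom of the scale in both groups of EFO-21, Kuramochi and OVSAHO, so that their differences there are not fold changes. They were expressed in OV-90, with *ADH1C* at 9.23 and 9.15 in the parental and 8.90, 8.90 and 8.79 in the resistant libraries. *ADH1C* has near-identical copies beside it, so that its reads may be shared with them.

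Of the genes for ubiquitin transfer, growth control and cell death, all 6 had differences of -1.15 or below in EFO-21. *UBE2D3* was at 7.40, 7.27 and 7.29 against 5.99, 6.13 and 6.25. *LAMTOR3*, a subunit of the Ragulator complex that brings mTORC1 to the lysosome, was at 7.18, 7.26 and 7.13 against 5.68, 6.22 and 6.15. *CASP6*, an effector caspase, was at 7.06, 7.09 and 7.03 against 5.45, 5.74 and 5.70. For none of them did the parental and resistant libraries overlap. *RAP1GDS1*, an exchange factor and chaperone of small GTPases, was at 7.20, 7.05 and 7.18 against 5.73, 5.88 and 5.94. *DDIT4L*, an inhibitor of mTOR signalling, had a difference of -2.56, from a mean of 4.29 to 1.72.

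In Kuramochi, *LAMTOR3* fell (6.89, 7.03 and 6.87 against 5.87, 5.77 and 5.76, a difference of -1.13 ± 0.10, limma adjusted p = 0.000259), and *DDIT4L* fell by 1.52 (limma adjusted p = 0.000318). *UBE2D3* was at 7.80, 7.69 and 7.60 against 6.73, 6.87 and 6.76 there (-0.91 ± 0.086, limma adjusted p = 0.000362). *RAP1GDS1* was at 8.16, 8.16 and 8.11 against 7.17, 7.28 and 7.11 (-0.96 ± 0.073, limma adjusted p = 0.00016). Both were below in every resistant library but short of 2-fold. *CASP6* was at 6.09, 6.36 and 6.56 against 5.86, 5.84 and 5.90 (-0.47 ± 0.14, limma adjusted p = 0.0377). None of these 5 genes nor *TBCK*, a regulator of mTOR signalling, passed the test in OVSAHO, where all 6 differed by -0.13 to 0.04.

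The most extreme value of the list was that of *PPP3CA* (chr4:101944566-102269435, GRCh37, minus strand), the alpha catalytic subunit of the calcium-dependent phosphatase calcineurin. It was at 5.67, 5.59 and 5.62 in parental EFO-21 and at 0.22, 0.24 and 0.22 in resistant EFO-21, the bottom of the scale. The value rests on 33 exons, and it was between 5.55 and 7.33 in every library of the other 3 lines. In Kuramochi it was at 7.33, 6.80 and 6.85 against 6.39, 6.39 and 6.21 (-0.66 ± 0.16, limma adjusted p = 0.017). The nearest listed genes, *DDIT4L* and the B-cell adaptor *BANK1*, were at means of 1.72 and 2.25 in resistant EFO-21, from 4.29 and 3.06 in the parental line. Between *DDIT4L* and *PPP3CA* lies *EMCN*, the endothelial sialomucin endomucin, which was not listed and is measured on 1 exon, with means of 3.67 in parental and 0.88 in resistant EFO-21.

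**Figure D2:**
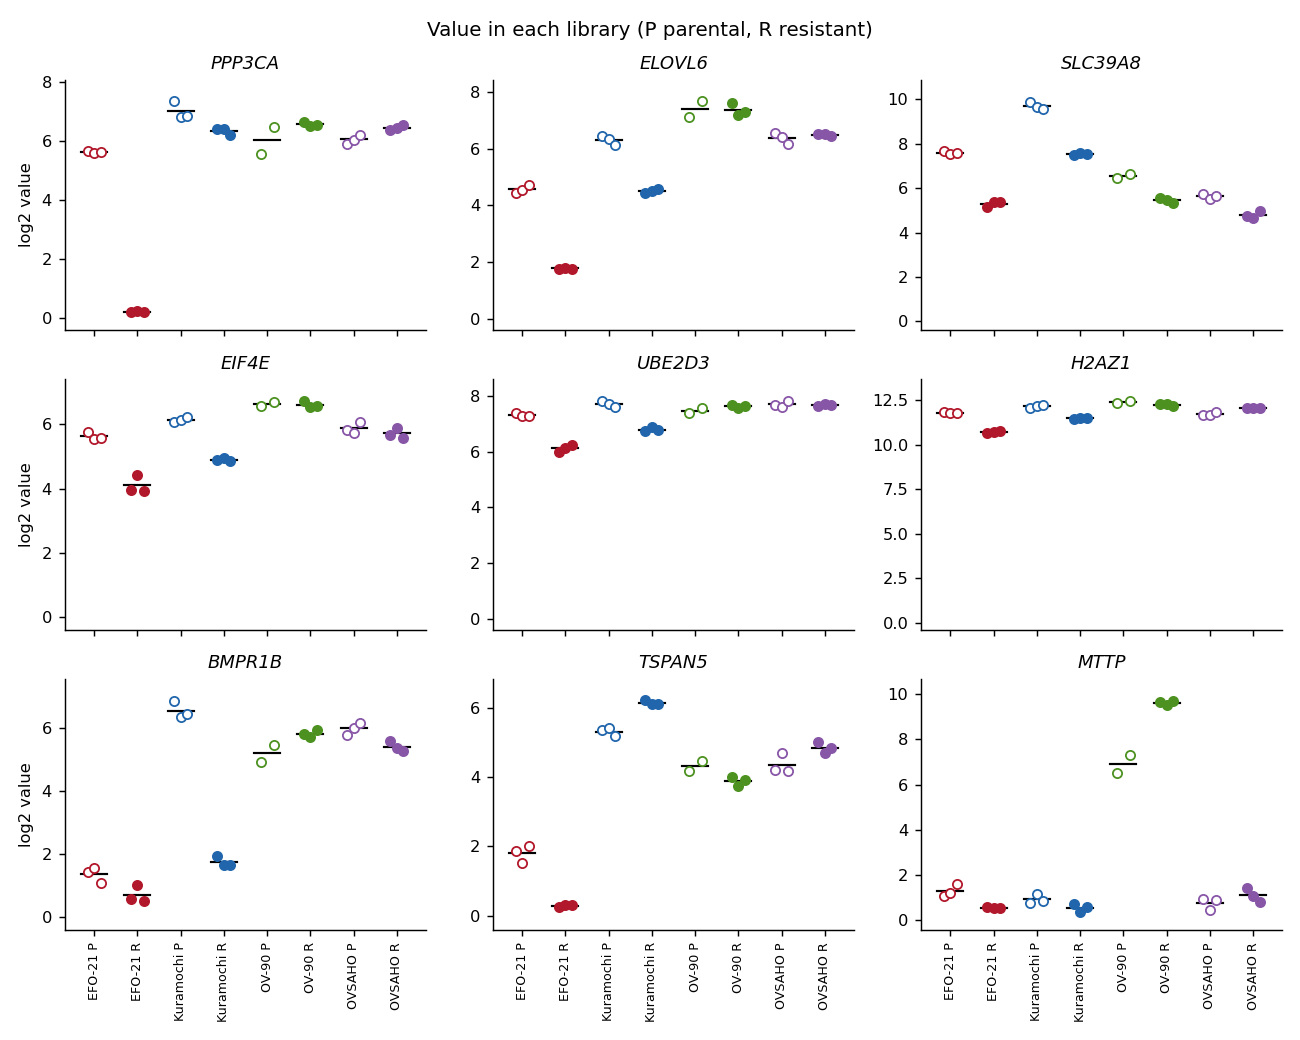
Log2 value (y axis) of 9 listed genes in each of the 23 libraries, with 1 column for each line and group, open points for parental (P) and filled points for resistant (R) libraries, and a bar at the group mean. *PPP3CA* lies at 0.22 to 0.24 in resistant EFO-21 and above 5 in all other groups, *BMPR1B* is low in resistant Kuramochi (1.66 to 1.94), and *MTTP* is above 6 in OV-90 alone.

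Among the other receptors and signalling genes, *BMPR1B*, a type I receptor of bone morphogenetic proteins, was at the bottom in both EFO-21 groups (1.43, 1.55 and 1.08 against 0.57, 1.0 and 0.52). In Kuramochi, where it was expressed, it fell from 6.87, 6.35 and 6.43 to 1.94, 1.66 and 1.66 (-4.80 ± 0.22, limma adjusted p = 2.39e-05). It was the listed gene with the largest change in Kuramochi. *ALPK1* and *TIFA*, the kinase that senses bacterial heptose sugars and its adaptor in NF-κB signalling, start 446 bases apart on opposite strands. *ALPK1* was at 5.36, 5.38 and 5.27 against 4.19, 4.20 and 4.17 in EFO-21, and at 4.64, 4.69 and 4.71 against 3.74, 3.92 and 3.61 in Kuramochi (-0.93 ± 0.17, limma adjusted p = 0.00531). *TIFA* was at 8.46, 8.26 and 8.20 against 7.20, 7.18 and 7.24 in EFO-21, and at 8.31, 8.23 and 8.15 against 7.70, 7.97 and 7.26 in Kuramochi (-0.58 ± 0.18, limma adjusted p = 0.0372). The neighbours differed by -1.15 and -1.10 in EFO-21 and by -0.93 and -0.58 in Kuramochi. The pair *UBE2D3* and *CISD2* had -1.20 and -1.25 in EFO-21 and -0.91 and -0.96 in Kuramochi. The pair *TRMT10A* and *MTTP*, which start 42 bases apart, had -1.78 and -0.75 in EFO-21 and 0.32 and 2.70 in OV-90. *MTTP* was at the bottom in both EFO-21 groups. Since 32 of 46 listed genes lay between -0.8 and -1.6 in EFO-21, nothing is read from closeness of a pair there.

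Genes of lipid and mitochondrial metabolism were spread more widely in EFO-21, from -2.79 to 0.11. *ELOVL6*, which lengthens fatty acids of 16 carbons, was at 4.45, 4.54 and 4.72 against 1.77, 1.81 and 1.77, and the resistant values were at the bottom of the scale. In Kuramochi it fell from 6.45, 6.33 and 6.11 to 4.42, 4.52 and 4.57 (-1.79 ± 0.14, limma adjusted p = 0.00019). *PPA2*, the mitochondrial pyrophosphatase, was at 8.13, 8.14 and 8.18 against 6.74, 6.92 and 6.97 in EFO-21, and fell in Kuramochi (7.95, 8.29 and 8.36 against 7.15, 7.02 and 7.34, a difference of -1.03 ± 0.14, limma adjusted p = 0.00149). Smaller differences were seen for *HADH*, an enzyme of mitochondrial fatty acid oxidation. It was at 8.30, 8.36 and 8.26 against 7.72, 7.85 and 7.81 in EFO-21, and at 8.10, 8.31 and 8.32 against 7.56, 7.57 and 7.58 in Kuramochi (-0.68 ± 0.079, limma adjusted p = 0.000843). *PAPSS1*, which makes the sulphate donor of the cell, was at 7.50, 7.51 and 7.44 against 6.98, 7.08 and 7.04 in EFO-21. In Kuramochi it was at 9.71, 9.58 and 9.57 against 8.78, 8.81 and 8.73 (-0.84 ± 0.061, limma adjusted p = 0.000127). *HADH* and *PAPSS1*, with -0.51 and -0.45, thus had less than the median difference of the list in EFO-21 although none of their libraries overlapped.

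Of the genes for transport, secretion and the lysosome, *SLC39A8*, an importer of zinc and manganese, was lower in the resistant libraries of all 4 lines. It was at 7.68, 7.53 and 7.57 against 5.16, 5.36 and 5.39 in EFO-21. It fell in Kuramochi from 9.89, 9.63 and 9.58 to 7.49, 7.56 and 7.53 (-2.18 ± 0.094, limma adjusted p = 2.11e-05) and in OV-90 from 6.44 and 6.64 to 5.56, 5.48 and 5.31 (-1.09 ± 0.15, limma adjusted p = 0.0153). In OVSAHO it was at 5.72, 5.53 and 5.64 against 4.73, 4.66 and 4.97 (-0.84 ± 0.13, limma adjusted p = 0.00496), short of 2-fold. The resistant and parental libraries did not overlap in any of the lines, but the OV-90 call was lost without library 3 and without each of the resistant libraries.

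*OSTC*, a subunit of the complex that attaches sugars to new secretory proteins, was at 8.66, 8.62 and 8.69 against 7.15, 7.36 and 7.54 in EFO-21. In Kuramochi it was at 7.95, 8.23 and 8.21 against 7.28, 7.29 and 7.39 (-0.81 ± 0.10, limma adjusted p = 0.00092). *SEC24B*, a coat protein of vesicles that leave the endoplasmic reticulum, was at 6.54, 6.37 and 6.36 against 5.26, 5.35 and 5.41 in EFO-21, and at 7.04, 6.76 and 6.71 against 5.99, 6.06 and 5.94 in Kuramochi (-0.84 ± 0.12, limma adjusted p = 0.00198). *MANBA*, the lysosomal beta-mannosidase, was a gene whose difference was smaller in Kuramochi. It was at 6.52, 6.58 and 6.59 against 5.37, 5.55 and 5.57 in EFO-21, but at 6.34, 6.26 and 6.32 against 6.25, 6.01 and 6.05 in Kuramochi (-0.20 ± 0.11, limma adjusted p = 0.181).

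Among the surface and matrix genes, *NPNT* and *TSPAN5* had unlike values in EFO-21 and Kuramochi. *NPNT*, the matrix protein nephronectin, was at 2.95, 3.04 and 3.09 against 3.17, 2.60 and 3.32 in EFO-21, with overlapping libraries. In Kuramochi it fell from 6.47, 6.14 and 5.96 to 3.88, 4.44 and 4.0 (-2.09 ± 0.22, limma adjusted p = 0.000562). *TSPAN5*, a tetraspanin that guides the protease ADAM10 to the surface, was low in EFO-21, at 1.88, 1.52 and 2.02 against 0.25, 0.32 and 0.30, the latter at the bottom. In Kuramochi it was the only listed gene above 0, at 5.36, 5.42 and 5.18 against 6.22, 6.13 and 6.11 (0.83 ± 0.12, limma adjusted p = 0.00214), short of 2-fold.

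In Kuramochi, whose libraries had no part in the choice, the listed genes were lower as a group. The median difference was -0.93, with quartiles of -1.30 and -0.59, against -0.02 over all genes, and 50 of 51 genes were below 0. With an adjusted p under 0.05 and a 2-fold change, 22 genes fell (43.1%, against 10.6% of all genes) and 0 rose (11.8% of all genes). By the same limma test without the fold threshold, 41 were lower (80.4%, against 23.3% of all genes) and 1, *TSPAN5*, was higher (23.6% of all genes). At an unadjusted limma p under 0.05, 42 were lower (27.4% of all genes) and 1 higher (27.1% of all genes). All resistant libraries lay below all parental ones for 47 of 51 genes (92.2%, against 30.5% of all genes). Leaving out any 1 library gave 20 to 23 calls and moved the median to between -0.96 and -0.88.

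The 8 largest changes in Kuramochi were all falls. After *BMPR1B* came *BANK1*, from 5.08, 5.07 and 5.37 to 1.61, 0.72 and 0.55 (-4.22 ± 0.32, limma adjusted p = 0.000162). Its resistant values were at the bottom of the scale, so that this is not a measured fold change. Next was *UNC5C*, a netrin receptor, from 7.65, 7.04 and 7.09 to 4.59, 4.75 and 4.42 (-2.67 ± 0.20, limma adjusted p = 0.000148). *CFI*, a protease that cleaves complement C3b and C4b, fell by 2.31 (limma adjusted p = 0.000205). *SLC39A8* and *NPNT* are given above. *DAPP1*, an adaptor of phosphoinositide signalling, fell by 1.99 (limma adjusted p = 0.000264), and *SLC9B1*, a sodium and proton exchanger, by 1.86 (limma adjusted p = 0.00296). The values of *SLC9B1* rest on 3 exons, and it overlaps *CISD2* on the other strand. The other 14 genes that passed lay between -1.79 for *ELOVL6* and -1.01 for *GSTCD*. *ADH6* was among them although it was at the bottom of the scale in both groups.

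The sizes of the differences in EFO-21 and in Kuramochi were not alike gene by gene. Across the 51 genes, Pearson's r was -0.04 and Spearman's rho 0.10, as a description over genes that share libraries. Without the genes at the bottom of both groups in either line and without *PPP3CA*, r was 0.15 over 45 genes. The difference was at or beyond 2-fold in both lines for 15 genes, and below 0 in both for 44. Of the 34 genes at or beyond 2-fold in EFO-21, 15 were called in Kuramochi, and of the other 17, 7 were.

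In OV-90 the listed genes were not lower as a group. The median difference was -0.04 against -0.06 over all genes, 5 genes fell (6.56% of all genes) and 3 rose (9.5% of all genes), and 21 lay without overlap below the parental libraries (37.1% of all genes). The largest change was a rise of *MTTP*, from 6.53 and 7.30 to 9.64, 9.52 and 9.69 (2.70 ± 0.24, limma adjusted p = 0.00796). *MTTP* was at the bottom in all other groups. *CFI* rose from 6.12 and 5.81 to 7.41, 7.26 and 7.23 (1.33 ± 0.14, limma adjusted p = 0.0105), and *LRIT3*, a synaptic protein of the retina measured on 1 exon, by 1.06 (limma adjusted p = 0.0228). The falls were those of *SLC9B1* (-1.55), *DDIT4L* (-1.5), the exchanger *SLC9B2* (-1.46), the exchange factor *ARHGEF38* (-1.13, on 1 exon) and *SLC39A8*. Each of these 8 calls was lost without at least 1 library, with 3 falls and 11 rises without parental library 3, and 0 of either without resistant library 13.

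In OVSAHO 0 of the 51 genes fell (3.83% of all genes) and 1 rose (3.93% of all genes), and the median difference was 0.04 against 0.00 over all genes. By limma without the fold threshold 4 genes were lower (16.2% of all genes) and 11 higher (17.1% of all genes). At an unadjusted limma p under 0.05, 7 were lower (21.4% of all genes) and 17 higher (22.9% of all genes). The gene that rose was *UNC5C*, from 3.60, 4.37 and 4.15 to 5.91, 6.16 and 6.08 (2.01 ± 0.22, limma adjusted p = 0.00172). Resistant libraries lay below all parental ones for 7 genes (23.7% of all genes).

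The difference between lines was tested for the lines that had no part in the choice. Between Kuramochi and OV-90, 27 of the 51 genes had a lower resistant-minus-parental difference in Kuramochi (17.2% of all genes), and *TSPAN5* had a higher one. Between Kuramochi and OVSAHO this was so for 25 genes (11.7% of all genes) and for 0 in the other direction. Both directions together, 33.1% of all genes differed between Kuramochi and OV-90, and 23.6% between Kuramochi and OVSAHO. *EIF4E* was lower by 1.22 ± 0.17 (limma adjusted p = 4.52e-05) against OV-90 and by 1.08 ± 0.16 against OVSAHO (limma adjusted p = 9.13e-05). *UBE2D3* differed by -1.06 ± 0.12 from OV-90 (limma adjusted p = 5.1e-06) and by -0.89 ± 0.11 from OVSAHO (limma adjusted p = 1.53e-05), short of 2-fold.

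The lower values did not end at the last listed gene. The 28 window genes that were not listed had a median of -0.51 in EFO-21 and of -0.85 in Kuramochi, with 7 (a description, 7.15% of all genes) and 11 (10.6% of all genes) of them past the thresholds for lower values. In OV-90, 2 of them fell (7.14%, against 6.56% of all genes) and 2 rose (9.5% of all genes). In OVSAHO 2 fell (7.14%, against 3.83% of all genes) and 5 of the 28 rose (3.93% of all genes). Among them in EFO-21 were *NFKB1*, the p105 and p50 subunit of NF-κB, at -1.28, the ribosomal protein gene *RPL34* at -1.35 and the mitochondrial calcium channel subunit *MCUB* at -1.72. In Kuramochi *NFKB1* differed by -0.82 (limma adjusted p = 0.0016) and *RPL34* by -0.87 (limma adjusted p = 0.00248), while *MCUB* was at 0.75 (limma adjusted p = 0.0326). The Wnt factor *LEF1* fell there by 5.25 (limma adjusted p = 8.14e-06). It was at the bottom in resistant Kuramochi and in both groups of EFO-21.

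Along the chromosome, in steps of 10 Mb and among genes with a mean above the median of all genes, the EFO-21 median was between -0.11 and 0.22 from 0 to 60 Mb. It was -0.43 at 60 to 70 Mb, -0.44 at 70 to 80 Mb, -0.31 at 80 to 90 Mb, -0.62 at 90 to 100 Mb, -1.20 at 100 to 110 Mb, -1.06 at 110 to 120 Mb, -0.68 at 120 to 130 Mb and -0.54 at 140 to 150 Mb, and back at -0.07 from 150 to 160 Mb. All 17 genes of the step at 100 to 110 Mb were below 0. Among the 235 steps of the genome with at least 15 such genes, its EFO-21 median was the lowest, level with the step at 150 to 160 Mb of chromosome 6. Of its 17 genes 15 are listed ones, so that this rank restates the choice. The step ranked 5 from the lowest in Kuramochi, 33 in OV-90 and 100 in OVSAHO. In Kuramochi the step medians were 0.33 to 0.69 from 0 to 60 Mb, then -0.81 to -0.64 from 60 to 130 Mb, and 0.05 to 0.57 beyond. The change of level in Kuramochi between 50 to 60 Mb and 60 to 70 Mb was from 0.50 to -0.65. The listed genes were thus in the middle of a longer stretch of lower values in both lines. The steps at 90 to 100, 100 to 110 and 110 to 120 Mb were at 0.57, -0.17 and -0.31 in OV-90. In OVSAHO they were at 0.19, 0.01 and -0.11.

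**Figure D3:**
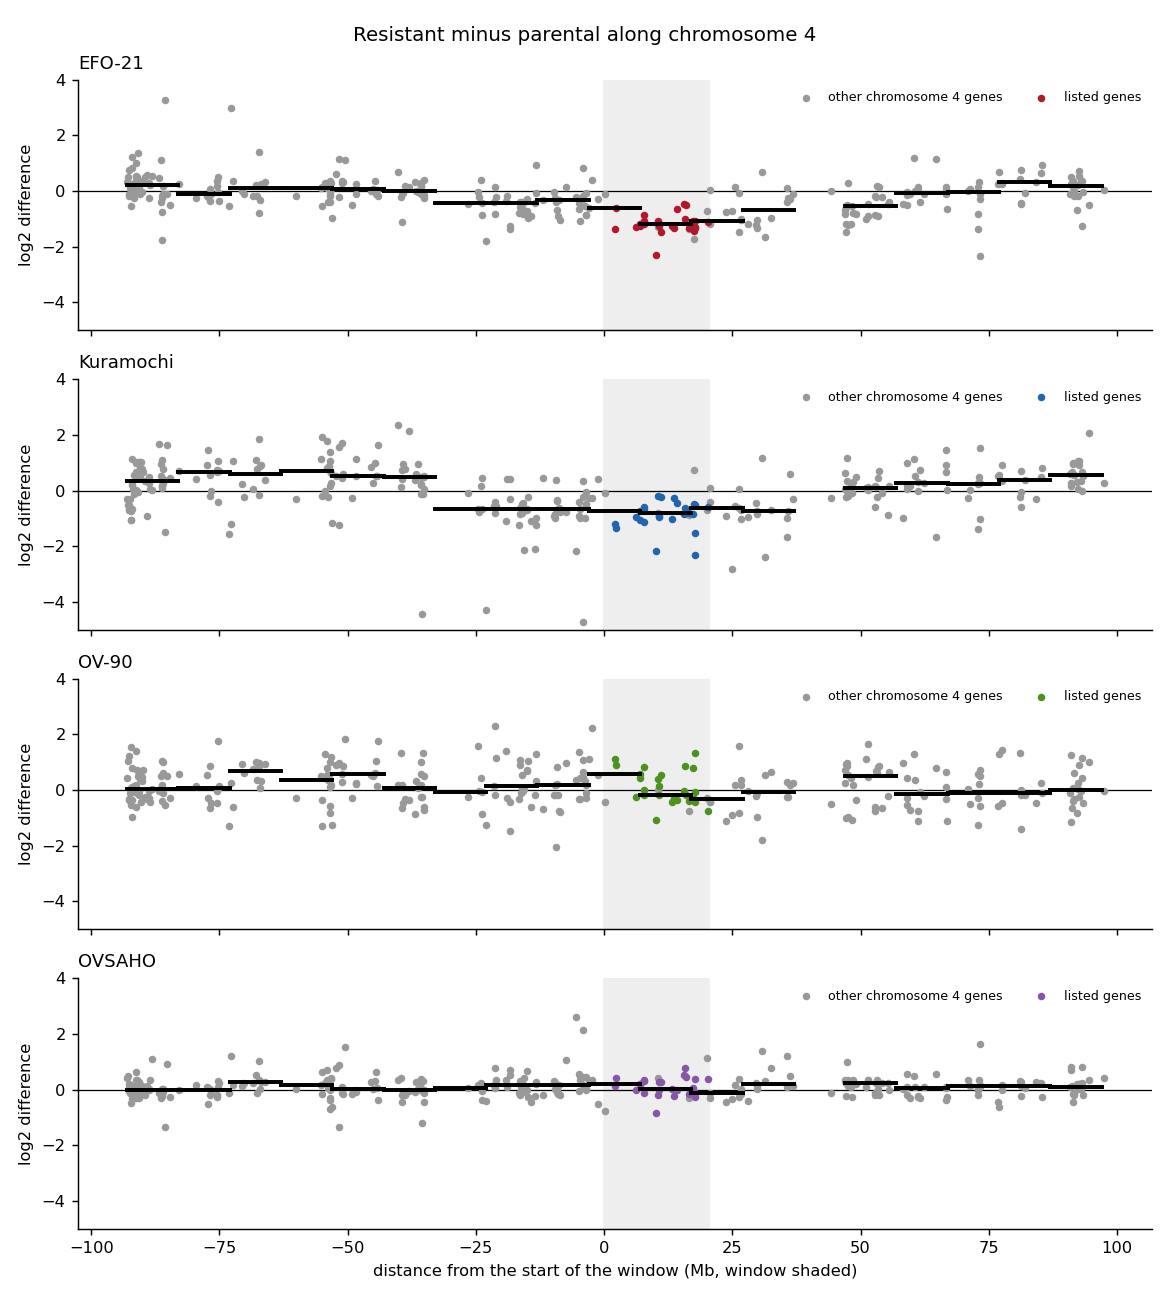
Resistant-minus-parental difference (log2, y axis) of 316 genes of chromosome 4 with a mean above the median, against the distance from the start of the window in Mb (x axis), in each line. Coloured points are the 26 listed genes above that level, grey points are other genes, the shaded part is the window, bars are medians of 10-Mb steps with at least 7 genes, and 1 Kuramochi gene at 8.60 lies above the axis. The bars dip to -1.20 in EFO-21 inside the window and stay between -0.81 and -0.64 in Kuramochi over a longer stretch.

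Just outside the window, *LARP7*, which stabilises the 7SK RNA, differed by -1.19 in EFO-21 and *CAMK2D*, a calmodulin-dependent kinase, by 0.45. On the side of the centromere *FAM13A* differed by -1.19. The 115 genes of a stretch as long as the window just before it had a median of -0.44 in EFO-21 and -0.69 in Kuramochi, and the 53 genes of such a stretch just after it had -0.59 and -0.64.

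Genes related in function but located on other chromosomes were compared with the listed genes. Of 81 paralogues and complex partners, 79 were analysed. In EFO-21, 0 of the 79 were past both thresholds by limma (7.15% of all genes lower and 7.11% higher). Their differences ran from -0.86 to 0.87, with a median of 0.00. Without the fold threshold, 46 of them passed an adjusted p under 0.05, 26 lower (23.4% of all genes) and 20 higher (25% of all genes). At an unadjusted limma p under 0.05 there were 27 lower (27% of all genes) and 25 higher (28.6% of all genes). The 30 paralogues had a median of -0.26 and the 49 partners one of 0.07. At an adjusted p under 0.05 without the fold threshold, 16 paralogues were lower (53.3%, against 23.4% of all genes) and 4 higher (25% of all genes). Of the partners, 10 were lower (20.4%) and 16 higher. The paralogues thus leaned lower by small amounts, and the partners did not.

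The paralogues of the lead genes differed by less than 2-fold in EFO-21. *H2AZ2*, the second gene of the H2A.Z histone, was at 0.06 (limma adjusted p = 0.438) and *EIF4E2* at -0.22 (limma adjusted p = 0.02). The other calcineurin catalytic genes *PPP3CB* and *PPP3CC* were at -0.54 (limma adjusted p = 0.00251) and -0.75 (limma adjusted p = 0.000328), in the direction of *PPP3CA*, and the regulatory subunit *PPP3R1* at 0.34 (limma adjusted p = 0.00489). *UBE2D1* and *UBE2D2* were at -0.39 and -0.48 and *UBE2D4* at 0.66. *METAP2* was at -0.61 and *CISD1* at -0.86, while *PAPSS2*, the paralogue of *PAPSS1*, was at 0.87. *ELOVL5* was at 0.46 and *ELOVL1* at -0.58. The other subunits of the Ragulator complex, *LAMTOR1*, *LAMTOR2*, *LAMTOR4* and *LAMTOR5*, were between -0.28 and 0.20, against -1.18 for *LAMTOR3*. The partners of *GAR1* in the H/ACA particle, *DKC1*, *NHP2* and *NOP10*, were between -0.35 and 0.07.

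In Kuramochi 6 of the 79 changed, 2 lower (10.6% of all genes) and 4 higher (11.8% of all genes). *UNC5B*, the paralogue of *UNC5C*, fell by 2.88 (limma adjusted p = 0.000307) and *SEC23B*, which pairs with *SEC24B* in the vesicle coat, fell by 1.08 (limma adjusted p = 8.59e-05). *STT3A*, a catalytic subunit of the complex that holds *OSTC*, rose by 1.93 (limma adjusted p = 1.13e-05), *PAPSS2* by 1.5 (limma adjusted p = 0.000361), *INTS1* by 1.12 (limma adjusted p = 0.000142) and *ELOVL5* by 1.09 (limma adjusted p = 0.00218). The median over the 79 was -0.01.

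**Figure D4:**
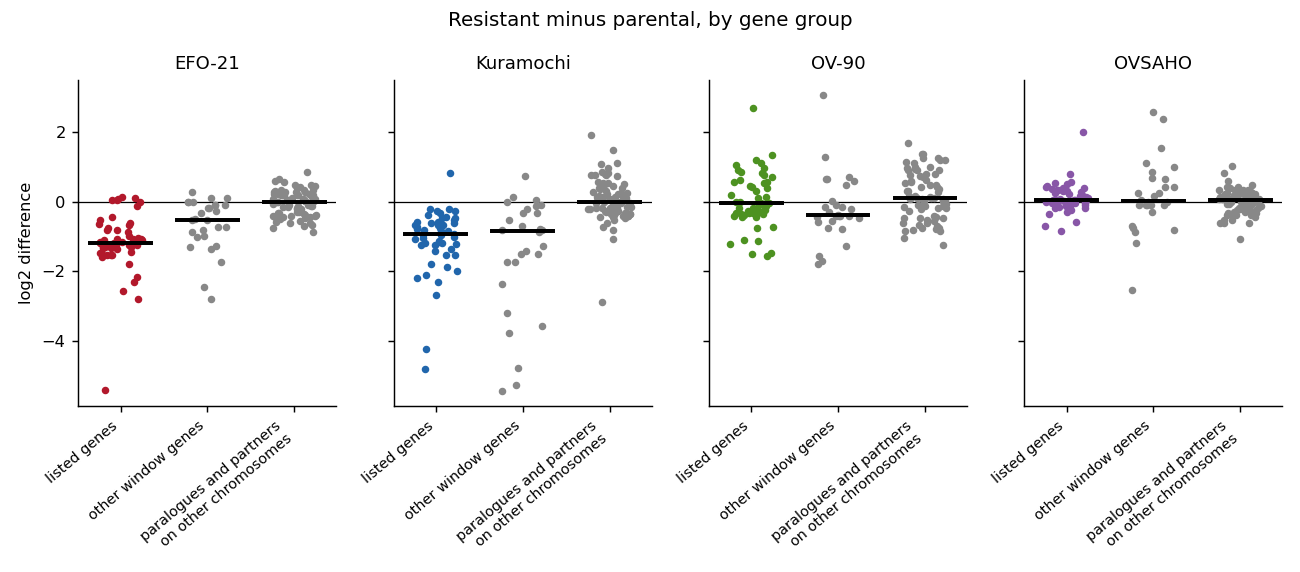
Resistant-minus-parental difference (log2, y axis) of the 51 listed genes, the 28 other genes of the window and 79 paralogues and partners on other chromosomes, in each line, with 1 point per gene and a bar at the median. In EFO-21 the medians are -1.17, -0.51 and 0.00, and in Kuramochi they are -0.93, -0.85 and -0.01.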

How the data were processed

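RNA of 23 libraries was sequenced as paired-end reads from stranded poly(A) libraries. According to the study's methods, the authors aligned reads to GRCh37 (hg19), removed exons with few reads, fitted exon and junction reads with a robust linear model to obtain a log2 value for each gene, and quantile-normalized the values before they were deposited. Of 21658 genes, 16448 carry the model estimate and 5210 a mean of log2 values. The gene annotation release is not given in the sources used here. The table has no counts, so the depth of each library is unknown.

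Resistant and parental libraries of each line were compared with limma 3.58.1 in R 4.3.3, with moderated variances that follow the mean level, with Benjamini-Hochberg adjustment over 21658 genes. A call needed an adjusted p under 0.05 and at least a 2-fold change. Differences between Kuramochi, OV-90 and OVSAHO came from 1 fit of their 17 libraries. An exact two-sided permutation test of 1 gene could not go below 0.1 here. The listed genes, paralogues and marker lists were chosen with earlier results of these data known. Library values are given for lead genes of each role group. Named besides are the genes called in Kuramochi, OV-90 and OVSAHO (the 8 largest if more), paralogues of lead genes, and neighbours that show where the lower values start and end. The table's columns carry no replicate numbers. Positions are GENCODE GRCh37. The fit was tested on simulated data. A log2 change of 1.5 was recovered for 80% of changed genes in EFO-21, 63% in Kuramochi, 42% in OV-90 and 70% in OVSAHO. False calls were 0.595%, 3.29%, 5.51% and 2.56% of all calls in the same order. Counts of calls are therefore not equally complete in the 4 lines. Alternatives are given in the closing section.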

Additional observations from a re-analysis of the deposited data

Results flagged for a closer look

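Of the listed genes called in Kuramochi, OV-90 or OVSAHO and named for it, 12 are given here because their resistant-minus-parental difference also differed between a pair of these lines by a test of that difference (limma, adjusted over all genes). They are part of the larger counts of such genes in the report, and the pair of lines with the largest difference is given for each. Since they were named for changes in these same libraries, such a difference follows in part from that choice, and the values are a description. Over all genes, 33.1% differed between Kuramochi and OV-90, 23.6% between Kuramochi and OVSAHO, and 15.9% between OV-90 and OVSAHO. Each value below is the difference in the first line minus the difference in the second on the log2 scale, with its standard error.

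Between Kuramochi and OV-90, *BMPR1B* differed by -5.42 ± 0.27 (limma adjusted p = 2.52e-09), *CFI* by -3.65 ± 0.22 (limma adjusted p = 1.82e-08) and *NPNT* by -3.04 ± 0.31 (limma adjusted p = 2.57e-06). *MTTP* differed by -3.07 ± 0.36 (limma adjusted p = 1.12e-05), and was at the bottom of the scale in both Kuramochi groups. *DAPP1* differed by -2.10 ± 0.40 (limma adjusted p = 0.000632), and *LRIT3*, measured on 1 exon, by -2.26 ± 0.66 (limma adjusted p = 0.0106).

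Between Kuramochi and OVSAHO, *UNC5C* differed by -4.69 ± 0.31 (limma adjusted p = 5.06e-08), as it fell in Kuramochi and rose in OVSAHO. *BANK1* differed by -4.26 ± 0.46 (limma adjusted p = 5.12e-06), and was at the bottom of the scale in resistant Kuramochi. *SLC9B1* differed by -1.78 ± 0.43 (limma adjusted p = 0.00419) and *DDIT4L* by -1.49 ± 0.49 (limma adjusted p = 0.0233). *SLC39A8*, lower in the resistant libraries of all 4 lines, was lower by more in Kuramochi than in OVSAHO, with -1.33 ± 0.16 (limma adjusted p = 1.04e-05). Between OV-90 and OVSAHO, *SLC9B2* differed by -1.40 ± 0.20 (limma adjusted p = 0.000226).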

How the results depend on the processing

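The median of the listed genes stayed below 0 in EFO-21 and Kuramochi under every alternative run, and leaving out 1 library gave -1.19 to -1.13 in EFO-21 and -0.96 to -0.88 in Kuramochi. In OV-90 the median of -0.04 became -0.06 after recentring and ran from -0.08 to 0.05 with 1 library left out, so that its sign turned without parental library 3. With 1 library left out, 32 to 34 listed genes were lower in EFO-21, 20 to 23 in Kuramochi, 0 to 3 in OV-90 and 0 in OVSAHO, and 0 to 11 were higher in OV-90. The other window genes past the thresholds numbered 0 to 4 in OV-90 and 4 to 7 in OVSAHO, and the paralogues and partners 0 to 27 in OV-90 and 1 to 2 in OVSAHO.

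With a 1.5-fold threshold, 36 listed genes fell and 1 rose in Kuramochi, and 1 fell and 2 rose in OVSAHO. In OV-90 7 rose, and *TIFA* (-0.75, limma adjusted p = 0.0216) fell besides the 5 genes that fell at 2-fold. Without a fold threshold, 41 were lower and 1 higher in Kuramochi, 11 and 8 in OV-90, and 4 and 11 in OVSAHO. The lower ones were 80.4%, 21.6% and 7.84% of the listed genes, against 23.3%, 17.9% and 16.2% of all genes. The other window genes numbered 11 in EFO-21 with either threshold and 12 in OVSAHO without one. The paralogues and partners numbered 9, 15, 27 and 7 at 1.5-fold in EFO-21, Kuramochi, OV-90 and OVSAHO, and 46, 36, 34 and 32 without a fold threshold. Of the latter, the lower ones were 32.9%, 20.3%, 17.7% and 20.3% of the paralogues and partners, against 23.4%, 23.3%, 17.9% and 16.2% of all genes. No share of all genes is given for counts at 1.5-fold, with low values filtered or with 1 library left out. Those counts were not compared with the background. With low values filtered, fewer genes were tested, and the counts were 4 other window genes in Kuramochi and 3 in OVSAHO, and 2 listed genes lower in OV-90. Calls of *ARHGEF38* and *LRIT3* in OV-90 were also lost in 1 fit of the 23 libraries. No paired analysis was possible because the table's columns carry no replicate numbers. The depth is unknown, and values at the bottom of the scale limit what a difference can show.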
